A study of Mus musculus with 2 samples.

Results

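The genes described here are the Wnt ligands of the mouse, their Frizzled and Lrp receptors, the secreted inhibitors of the pathway, the R-spondins with their Lgr receptors, and the intracellular Dvl and Axin proteins. They were chosen by gene symbol and by having at least 1 protein-coding transcript. The rule used no measured value, but it was set with earlier results of these data known. The rule found 53 genes of 55536 in the deposited gene tables, and of the 21901 that have a protein-coding transcript. Total RNA with ribosomal RNA reduced was sequenced from whole hearts of male B6CASTF1/J mice at 2 months of age, an F1 hybrid strain supplied by The Jackson Laboratory. Per the labels the hearts make up 1 group of 2 biological replicates, untreated as far as the labels say, each with 1 library made from 300 ng of RNA. The labels number the males and tissue samples separately but give a shared donor entry, so the replicates are taken as 2 mice, called mouse 1 and mouse 2. With 1 group there is no contrast between conditions, and the smallest p that an exact 2-sided paired test on 2 mice could give is 0.5, so no p-value is given.

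Wnt proteins are lipid-modified secreted signals that bind a Frizzled receptor together with Lrp5 or Lrp6. The receptor complex recruits Dvl and Axin, which holds back the destruction complex and lets beta-catenin enter the nucleus and act with TCF and LEF factors. Some ligands, Wnt5a and Wnt11 among them, are better known for signalling without beta-catenin, through cell polarity and calcium. Wnt signals act in stages of heart formation, and in the adult heart the pathway has been studied mostly after injury.

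Transcripts of receptors and intracellular transducers were more abundant in sum in both hearts than those of ligands. Levels are given as TPM, transcript abundance scaled to library total and transcript length, so that genes may be compared with each other. Genes with 1 TPM or more in both mice are called detected. By this rule 25 of the 53 genes were detected, 47.2%, beside 50% of all genes with a protein-coding transcript. The share of the Wnt genes detected is thus close to that of all such genes. Their median level was 0.745 ± 0.0778 TPM (SD, n = 2), against 1.13 TPM over all genes with a protein-coding transcript. The 25 detected genes had a median of 2.87 ± 0.0778 TPM (SD, n = 2), and all 10961 detected genes one of 8.70 ± 0.191 TPM (SD, n = 2).

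Detection differed by role. All 5 Dvl and Axin genes and both co-receptors were detected, as were 7 of 10 Frizzled receptors and 4 of 5 secreted Frizzled-related inhibitors. Of the R-spondins and Lgr receptors 3 of 7 were detected, of the ligands 3 of 19, and of the Dkk and Wif inhibitors 1 of 5. The genes nearest to the limit were Fzd2, with 1.22 and 1.01 TPM in mouse 1 and mouse 2, and Wnt5b just under it with 0.75 and 0.91 TPM. In a whole heart, fewer cells that express a gene and less RNA per cell cannot be told apart.

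**Figure D1:**
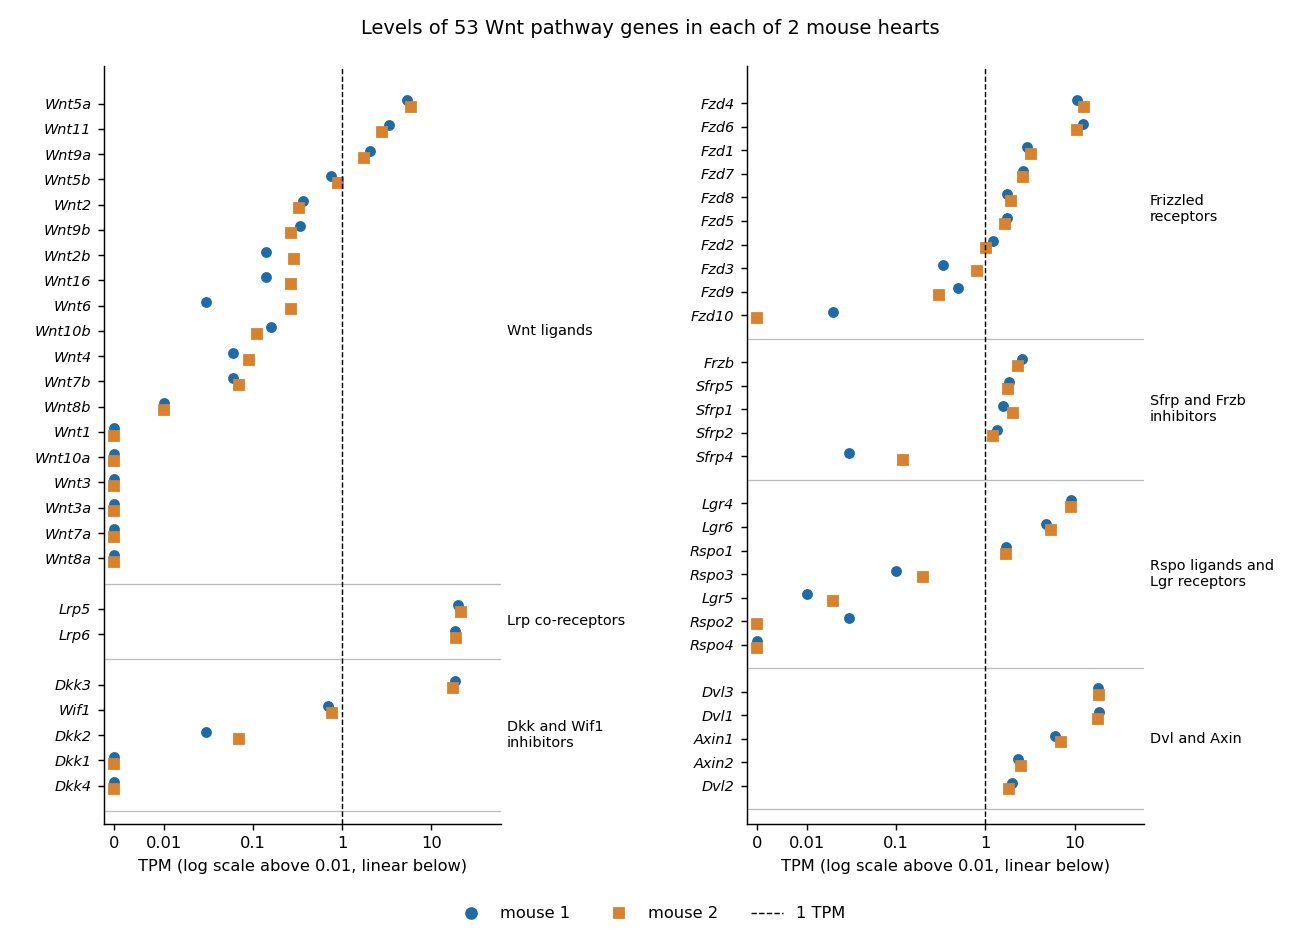
Level in TPM of each of the 53 genes (rows, grouped by role), with a circle for mouse 1 and a square for mouse 2. The horizontal axis is logarithmic above 0.01 TPM and linear below it, and the dashed line is the detection limit of 1 TPM, which 3 of 19 ligands and 7 of 10 Frizzled receptors pass in both mice.

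Of the genes at the low end, 9 had no expected count in either library: Wnt1, Wnt3, Wnt3a, Wnt7a, Wnt8a, Wnt10a, Dkk1, Dkk4 and Rspo4. They are 17% of the 53 genes, beside 25.1% of all genes with a protein-coding transcript that are listed at 0. A count of 0 allows up to 3 counts. For these genes that limit stands for 0.0325 to 0.0838 TPM in mouse 1 and 0.0286 to 0.0738 TPM in mouse 2, from the mean transcript length of each gene, and covers counting error only. The quantifier's own upper bounds were higher for Wnt10a, at 0.192 and 0.168 TPM, and for Wnt7a, at 0.785 and 0.696 TPM. Wnt7a has transcripts of 3172, 297 and 293 bases, and 3 counts on a short one would stand for more. The second transcript table, made from the reads directly, listed 3.03 counts for Dkk1 in mouse 1, 0 in mouse 2, and 2 in each mouse for Dkk4, and 0 for the other 7.

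In each of the 4 pairs of Wnt genes that lie side by side in the genome, 1 partner had no counts in either library. This held in the gene table and in the second transcript table. Of all 19 ligands, 6 had no expected count in either library. Within 50 kb of another Wnt gene lay Wnt1 with Wnt10b on chromosome 15, Wnt10a with Wnt6 on chromosome 1, and Wnt3 with Wnt9b and Wnt3a with Wnt9a, both on chromosome 11. The partner of Wnt3a was the detected gene among these: Wnt9a reached 2.03 and 1.75 TPM on 203 and 198 expected counts. The other partners were under 1 TPM in both mice: Wnt10b on 12 and 5 expected counts, Wnt6 on 2 and 17, and Wnt9b on 46 and 42. The starts of Wnt3a and Wnt9a point away from each other across 16175 bases. The 250 bases before each start are shown because both are dense in CG dinucleotides, in capitals, while 1 gene of the pair had counts and the other had none. Dkk1, also at 0 in the gene table, is shown for contrast, since CG is rare before its RefSeq start. All are from the RefSeq promoter table, build GRCm38.p6, read 5′ to 3′ along the gene: Wnt9a at chr11:59306680-59306929 on the plus strand, Wnt3a at chr11:59290752-59291001 on the minus strand and Dkk1 at chr19:30549497-30549746 on the minus strand.
Wnt9a: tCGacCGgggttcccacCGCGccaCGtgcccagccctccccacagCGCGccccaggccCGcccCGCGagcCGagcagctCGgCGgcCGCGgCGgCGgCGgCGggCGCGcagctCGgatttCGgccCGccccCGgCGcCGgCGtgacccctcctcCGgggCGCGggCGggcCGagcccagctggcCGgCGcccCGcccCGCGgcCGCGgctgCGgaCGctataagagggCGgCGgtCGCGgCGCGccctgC
Wnt3a: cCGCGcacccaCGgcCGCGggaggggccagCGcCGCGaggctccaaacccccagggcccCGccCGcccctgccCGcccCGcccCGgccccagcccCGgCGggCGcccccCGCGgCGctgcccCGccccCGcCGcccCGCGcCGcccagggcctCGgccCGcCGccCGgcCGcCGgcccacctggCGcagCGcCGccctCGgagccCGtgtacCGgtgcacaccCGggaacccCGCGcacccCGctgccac
Dkk1: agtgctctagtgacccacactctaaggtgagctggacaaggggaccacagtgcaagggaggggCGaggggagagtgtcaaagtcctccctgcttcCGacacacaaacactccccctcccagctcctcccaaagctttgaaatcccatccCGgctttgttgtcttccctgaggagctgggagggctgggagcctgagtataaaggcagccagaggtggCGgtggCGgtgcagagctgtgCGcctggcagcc
The 250 bases hold 48 CG in Wnt9a, 41 in Wnt3a and 6 in Dkk1. In the gene annotation used for the counts Dkk1 starts at base 30549665, so most of its stretch lies inside that gene.

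The table held promoter windows for 35 of the 53 genes, each reaching from 250 bases before to 50 after a start, and some genes have several. A window was called CG-rich where CG occurred at 0.6 or more of the number its C and G content would give by chance. All 17 windows of the 16 detected genes met this, and so did 14 of 21 windows of the 19 undetected genes, or 66.7%. Over all detected genes with a protein-coding transcript 70.4% of windows were CG-rich, over undetected ones 23.0%, and over all windows given 35.8%. These shares describe the windows and were not tested.

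Of the TCF and LEF motif only the form CTTTGAT was searched, with its reverse complement ATCAAAG, and other forms were not. That form was in 1 window of Wnt11 and 1 of Wnt5b among these genes, and in 3.73% of all windows in the table. Wnt11 is shown because it is the detected gene of the pair, with the motif in capitals, 250 bases on the plus strand at chr7:98834862-98835111.
Wnt11: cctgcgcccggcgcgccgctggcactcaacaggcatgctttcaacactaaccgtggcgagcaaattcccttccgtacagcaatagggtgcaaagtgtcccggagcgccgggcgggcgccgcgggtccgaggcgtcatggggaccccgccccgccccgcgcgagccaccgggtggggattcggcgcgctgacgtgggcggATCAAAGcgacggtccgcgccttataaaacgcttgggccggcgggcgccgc
The match begins at base 200 of the sequence. It says only that these letters are there in the reference build, not that a factor binds them. The sequences of the F1 hybrid mice themselves were not examined.

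Among the ligands, Wnt5a was the most abundant. Wnt5a (ENSMUSG00000021994.15, mm10 chromosome 14, 28504750 to 28527448) stood at 5.34 TPM in mouse 1 and 5.93 in mouse 2. Wnt11, a ligand with roles in early heart formation, was listed at 3.31 and 2.81 TPM, and Wnt9a at the values above. The ranges over the 2 mice did not overlap between these 3 ligands, nor between Wnt9a and Wnt5b, the next in order. On coding transcripts alone Wnt11 had 1.43 and 1.35 TPM and was below Wnt9a, all of whose 2.03 and 1.75 TPM were coding, in both mice. The remaining ligands with any counts were lower. Wnt2 was listed at 0.36 and 0.33 TPM, and Wnt9b at 0.34 and 0.27. Wnt2b, Wnt16, Wnt6, Wnt10b, Wnt4, Wnt7b and Wnt8b lay between 0.01 and 0.29 TPM in both mice. From Wnt2 down to Wnt10b no neighbours in the order were separated by the 2 mice. Over all 19 ligands the summed level was 12.73 TPM in mouse 1 and 13.11 in mouse 2, of which Wnt5a made up 43.6% ± 2.32 (SD, n = 2).

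The Frizzled receptors, seven-pass membrane proteins that bind Wnt through a cysteine-rich domain, summed to 34.17 TPM in mouse 1 and 35.31 in mouse 2. That is 2.69 ± 0.00647 (SD, n = 2) times the ligand sum. Fzd4 (ENSMUSG00000049791.4, mm10 chromosome 7, 89404355 to 89413134), which also binds the non-Wnt ligand norrin, had 10.54 and 12.90 TPM. Fzd6 had 12.47 and 10.77 TPM, so each of them led in 1 mouse and the order of the pair was not separated. All other Frizzled genes were lower in both mice. Fzd1 was listed at 2.92 and 3.23 TPM and Fzd7 at 2.65 and 2.68. Fzd8 followed with 1.75 and 1.95 TPM, Fzd5 with 1.76 and 1.67, and Fzd2 with the values above. Below 1 TPM were Fzd3 with 0.34 and 0.80, Fzd9 with 0.50 and 0.30, and Fzd10 with 0.02 and 0.

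The co-receptors Lrp5 and Lrp6, single-pass proteins that carry the signal to Axin, were among the highest of the 53 genes. Lrp5 (ENSMUSG00000024913.16, mm10 chromosome 19, 3584828 to 3686564) was listed at 19.96 and 21.66 TPM in mouse 1 and mouse 2, the highest level of the 53 genes in each mouse in the gene table. In the second transcript table Dvl3 was above it in both mice, with 21.7 and 22.3 TPM against 20.2 and 21.9 for Lrp5. On coding transcripts of the first table Dkk3 led in mouse 1, with 18.30 TPM against 17.70 for Lrp5, and Lrp5 led in mouse 2. Lrp6 was listed at 18.19 and 18.66 TPM. The ranges of the pair did not overlap, but the gap was small, with Lrp5 at 1.13 ± 0.0449 times Lrp6 (SD, n = 2), and the intervals that the quantifier gives for the 2 genes overlapped. Lrp5 lay above 74.8% of all detected genes with a protein-coding transcript in mean TPM, and Wnt5a above 36.7%.

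Of the intracellular genes, Dvl3 and Dvl1, which relay the signal from Frizzled, were at like levels. Dvl3 was listed at 18.55 and 19.03 TPM and Dvl1 at 18.61 and 18.13, so the order of the pair differed between the mice. In the second transcript table Dvl3 was above Dvl1 in both mice, at 1.03 and 1.04 times its level. On coding transcripts of the first table, which held 66.7% and 85.8% of the Dvl1 level, it was at 1.47 and 1.21 times. Dvl2 was lower, at 1.99 and 1.86 TPM, and Dvl1 stood at 9.55 ± 0.280 times its level (SD, n = 2). Dvl2 overlaps Acadvl, a fatty acid oxidation gene, by 2119 bases on the opposite strand, and Acadvl was listed at 485.88 and 519.10 TPM. The sources used here do not say whether counting used strand, and whether reads from the shared stretch count for either gene was not tested. Expected counts of Dvl2 were whole in the gene table, 151 and 180, but not in the second transcript table, 161.6 and 184.6. Among the ligands, Wnt5b overlaps Fbxl14 by 2963 bases, also on the opposite strand, and Fbxl14 had 6.17 and 6.37 TPM. Wnt5b had whole expected counts in the gene table, 51 and 72. Axin1, a scaffold of the destruction complex, was listed at 6.03 and 6.97 TPM. Axin2, a feedback gene induced by beta-catenin in many tissues, was listed at 2.31 and 2.54 TPM.

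**Figure D2:**
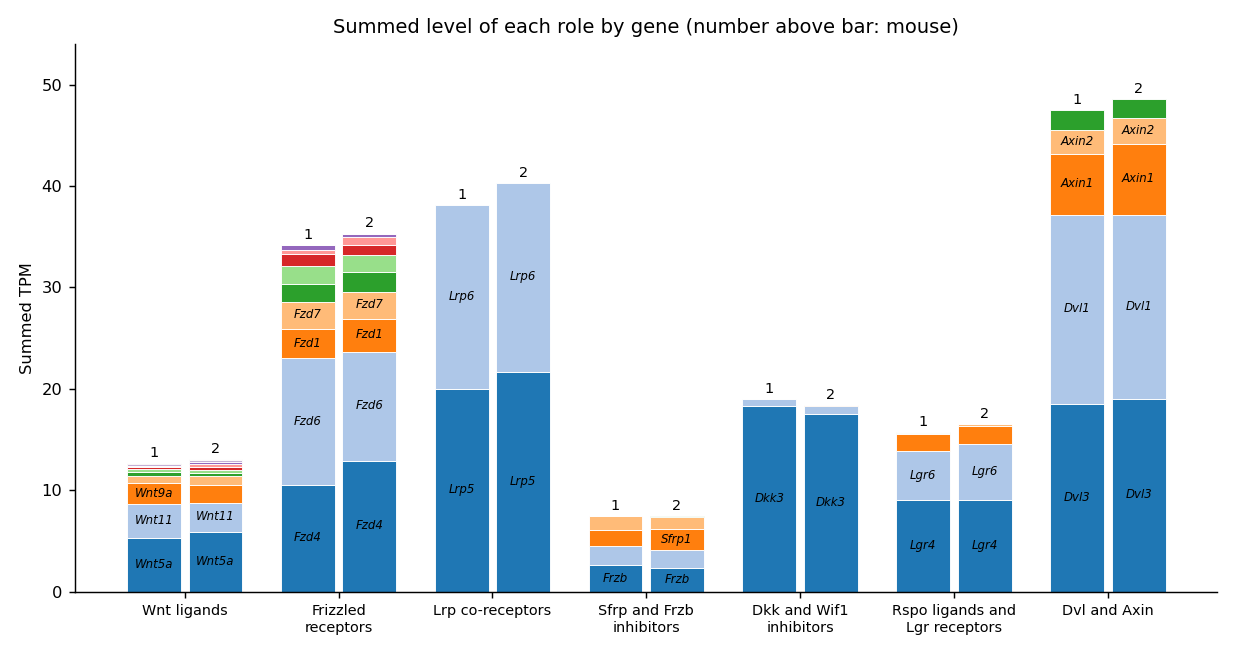
Summed TPM of each role, stacked by gene, with 1 bar per mouse (numbered above) and names on segments over 2 TPM. In both mice the Dvl and Axin bars and the Lrp bars are the tallest, at 48.0 and 39.2 TPM on average, and the bars of the secreted Frizzled-related inhibitors are the lowest, at 7.47 TPM.

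Of the secreted inhibitors, Dkk3 alone made up 95.8% ± 0.520 (SD, n = 2) of the summed Dkk and Wif1 level. Dkk3 (ENSMUSG00000030772.6, mm10 chromosome 7, 112116017 to 112159057) is the divergent member of the family, and its action on the Lrp receptors is less established than that of Dkk1. It was listed at 18.30 TPM in mouse 1 and 17.53 in mouse 2. Wif1, which binds Wnt proteins directly, had 0.69 and 0.76 TPM, and Dkk2 0.03 and 0.07. Dkk1 and Dkk4, other members that bind Lrp5 and Lrp6, were listed at 0 in the gene table.

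The secreted Frizzled-related inhibitors, which carry a Frizzled-like domain, were spread more evenly. Frzb, also called Sfrp3, was listed at 2.60 and 2.31 TPM, and Sfrp5 at 1.86 and 1.80. Sfrp1 was listed at 1.60 and 2.05 TPM and Sfrp2 at 1.36 and 1.21, while Sfrp4 had 0.03 and 0.12. Over all transcripts Frzb was above the others in both mice, and the ranges of Sfrp5 and Sfrp1 overlapped. On coding transcripts Frzb had 1.60 and 1.44 TPM and was below Sfrp5 in both mice, at 0.860 and 0.800 times its level. The 2 inhibitor families together had 2.03 ± 0.0761 times the summed TPM of the ligands (SD, n = 2), most of it Dkk3, since the Frizzled-related family alone had 0.578 ± 0.00984 times the ligand sum (SD, n = 2).

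R-spondins strengthen Wnt signals by binding Lgr4, Lgr5 or Lgr6 and drawing away the ligases Rnf43 and Znrf3, which remove Frizzled from the cell surface. Lgr4 was listed at 9.04 and 9.09 TPM and Lgr6 at 4.81 and 5.52. Lgr5, a stem cell marker in the gut, had only 1 and 4 expected counts. Of the ligands of this branch, Rspo1 was listed at 1.72 and 1.69 TPM, Rspo3 at 0.10 and 0.20, Rspo2 at 0.03 and 0, and Rspo4 had no counts. Lgr4, Lgr6 and Rspo1 were separated from each other in both mice.

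Over all roles, 25 of the 37 neighbouring pairs in the order of mean TPM, within a role, were separated by the 2 mice. For 16 of the 37 the intervals given by the quantifier were separate too. Here the lowest bound of the higher gene over both mice had to exceed the highest bound of the lower gene.

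The 2 hearts were then set side by side. Each gene's expected counts, the read counts estimated by the authors' quantifier, were scaled by TMM, and the ratio of mouse 2 to mouse 1 was taken for genes with a mean count of at least 50. Of the 27 Wnt genes with such counts, 0 differed by 2-fold or more, beside 0.570% of all 12453 genes with such counts. No test was run on these ratios, since each mouse has 1 library, and their 95% intervals are exact and cover counting error only. The log2 ratios ran from -0.42 for Sfrp2 to 0.31 for Sfrp1. The median size of the ratio was 1.08-fold over the 27 genes and 1.06-fold over all genes.

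With TMM scaling, the interval lay on 1 side of equality for 4 of the 27, 14.8%, beside 19.6% of all genes. Fzd4 was higher in mouse 2, with 2163 and 3004 counts and a log2 ratio of 0.24 (interval 0.16 to 0.32). Lgr6 was higher there too, with 915 and 1277 counts and a log2 ratio of 0.25 (0.12 to 0.37). Sfrp1 had 212 and 308 counts and a log2 ratio of 0.31 (0.05 to 0.56). Dkk3 was higher in mouse 1, with 1849 and 2010 counts before scaling and a log2 ratio of -0.11 (-0.20 to -0.02). With spike-in scaling its sign turned, to 0.06. The sign turned for other genes too, among them Axin1 (-0.01 to 0.16), Lgr4 (-0.02 to 0.16) and Fzd6 (-0.06 to 0.11). The count of 4 therefore holds for TMM scaling, and it was not taken with spike-in scaling. The biological coefficient of variation between the mice, over 15170 genes, was 6.63%. None of the 27 reached 1.5-fold either, beside 2.08% of all genes.

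**Figure D3:**
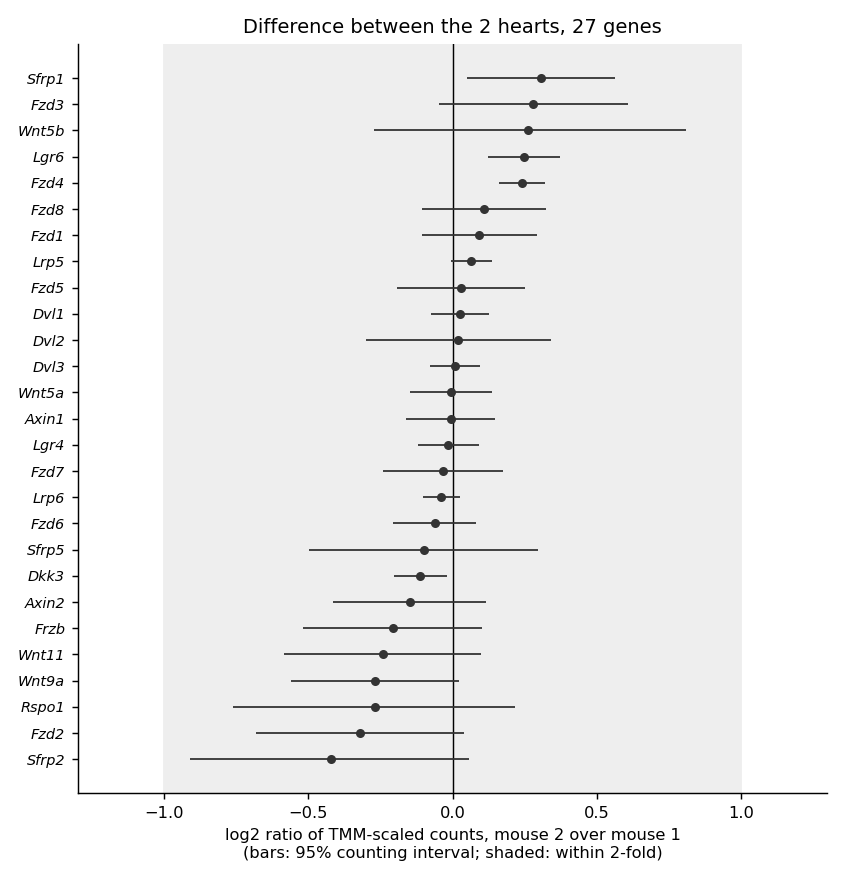
Log2 ratio of TMM-scaled counts, mouse 2 over mouse 1, for the 27 genes with a mean count of at least 50 (points), with 95% counting intervals (bars) and the range within 2-fold shaded. All 27 points lie within 2-fold, from -0.42 for Sfrp2 to 0.31 for Sfrp1.

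With a mean count of at least 10, 1 of 35 Wnt genes reached 2-fold, beside 2.58% of all genes. It was Wnt16, on 6 and 15 counts, with a log2 ratio of 1.03 and an interval of -0.36 to 2.74 that includes equality. With a mean count of at least 1, 8 of 44 reached 2-fold, 18.2%, beside 13.7% of all genes. The others were Wnt6 with 2 and 17 counts, Wnt10b with 12 and 5, Dkk2 with 3 and 9, Sfrp4 with 3 and 8, Lgr5 with 1 and 4, Fzd10 with 2 and 0 and Rspo2 with 3 and 0. Of these 8, the interval excluded equality for Wnt6, at a log2 ratio of 2.60 (0.78 to 6.01).

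The libraries held 39177981 and 44544839 expected counts. Marker genes of cardiomyocytes were all detected (6 of 6), as were those of fibroblasts (7 of 7), endothelial cells (6 of 6), mural cells (7 of 7), macrophages (5 of 5) and epicardium (5 of 5). Of the other lists 4 of 5 valve, 3 of 5 adipocyte, 5 of 6 red cell and 3 of 5 Schwann and neuronal markers were detected, and no marker was at 0 in both mice. The red cell markers summed to 20348 TPM in mouse 1 and 6413 in mouse 2. In the other direction, the adipocyte marker Plin1 had 1.25 and 2.61 TPM and the smooth muscle marker Tagln 22.84 and 35.87. The 7 mural markers together summed to 280.03 and 320.88 TPM, and of them the pericyte markers Rgs5, Abcc9 and Kcnj8 differed little, with 102.74 and 109.74, 87.51 and 89.92, and 9.01 and 9.04 TPM. The part of these cell types in the ratios above was not tested.

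The transcript tables showed which RNA forms the levels rest on. For 23 of the 25 detected genes the same transcript was the most abundant in both transcript tables, beside 77.9% of all detected genes with a protein-coding transcript. Of the 25, 8 have 1 annotated transcript and could not differ, and of the other 17 the transcript was the same in 15, or 88.2%, beside 76.0% of all such genes. Wnt11 was led by Wnt11-202, a transcript marked for nonsense-mediated decay, in the first table and by the coding Wnt11-205 in the second. Wnt5a was led by the coding Wnt5a-201 in the first and by Wnt5a-203, a processed transcript with no annotated coding sequence, in the second.

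The most abundant transcript of Fzd6 was not coding in either table. Fzd6-204, a 750-base transcript marked for nonsense-mediated decay, had 5.27 and 4.33 TPM in the first table on 106 and 99.1 counts. The 2 coding transcripts of Fzd6 had 4.76 and 4.90 TPM together, 38.2% and 45.5% of the gene's TPM, but 81.4% and 85.4% of its counts, since they are far longer. On coding transcripts alone Fzd4 exceeded Fzd6 in both mice, by 2.42 ± 0.296 times (SD, n = 2). On all transcripts that ratio was 1.02 ± 0.249 (SD, n = 2). The even level of the 2 leading Frizzled receptors therefore rests on the short transcripts of Fzd6.

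Other genes split between coding and non-coding forms as well. The coding share of TPM in the first table was 43.1% and 48.0% for Wnt11, 72.8% and 65.0% for Wnt5a, and 61.5% and 62.3% for Frzb. For Dvl2 it was 65.5% and 82.2%, and for Rspo1 75% and 62.1%. A share under 75% was found for 6 and 5 of the 25 genes in mouse 1 and mouse 2. Over all 10961 detected genes with a protein-coding transcript it was found for 2565 and 2429, so such a share was about as common among them. Over the 25 genes the median coding share was 98.0% ± 0.376 (SD, n = 2), and over all detected genes with a protein-coding transcript it was 94.1% ± 0.812 (SD, n = 2). On coding transcripts the ligand sum fell to 9.46 ± 0.0778 TPM and the Frizzled sum to 27.8 ± 1.84 TPM (SD, n = 2 for both). Below the detection limit, Wif1 had 0.15 and 0.75 TPM on coding transcripts, and a retained-intron transcript took 23.4 counts in mouse 1 and 0.61 in mouse 2. Fzd3, at 0.34 and 0.80 TPM, differed less in counts, with 134 and 191, and a 426-base processed transcript held 0.38 TPM in mouse 2 on 4.33 counts.

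**Figure D4:**
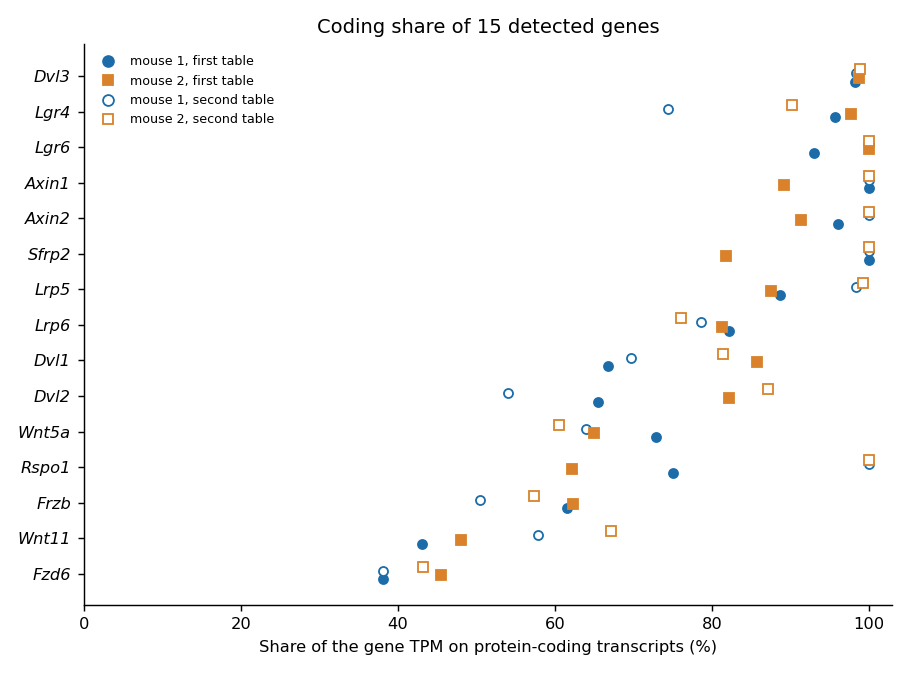
Share of each gene's TPM on protein-coding transcripts, in percent, for the 15 detected genes with less than all of it there in some table, with circles for mouse 1, squares for mouse 2, filled for the first transcript table and open for the second. Fzd6 is lowest in the first table, at 38.2% and 45.5%, and Rspo1 lies at 100% in the second table but lower in the first.

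The second transcript table gave levels near those of the gene table. The ratio of the second to the first had a median of 1.09 over the 25 detected genes, from 0.840 for Rspo1 to 1.35 for Frzb, and 22 of 25 genes, 88%, were higher in the second. Over all detected genes with a protein-coding transcript the median ratio was 1.15, and 86.8% were higher in the second. For 23 of the 53 genes the mean level moved by at least the SD between the mice. The order of the mice could change too: Axin2 had 2.31 and 2.54 TPM in the gene table but 2.86 and 1.98 in the second.

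Most other genes of the pathway were detected. Of 82 further genes in 7 lists, 63 were detected, beside 50% of all genes with a protein-coding transcript. The lists were chosen with earlier results of these data known, so this share describes these lists only. Of the 69 with a mean count of at least 50, 0 differed by 2-fold between the mice, beside 0.570% of all genes. For the release of Wnt from the cell, 7 of 8 genes were detected. Tmed2 and Snx3, which act in Wnt transport, were listed at 72.54 and 74.48 TPM and at 60.87 and 68.64 TPM. Vps35 of the retromer had 27.36 and 26.41 TPM, and Trabd2b, a protease that inactivates Wnt, 26.51 and 26.76. Porcn, the enzyme that adds the lipid to Wnt, had 1.17 and 1.10 TPM, close to the limit, while Wls, the carrier of Wnt to the surface, had 13.79 and 14.96.

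Of 12 other receptors and partners 9 were detected. Tspan12, a partner of Fzd4 in norrin signalling, had 29.95 and 30.29 TPM, but norrin itself (Ndp) had 0 and 1 counts. Ryk, a Wnt receptor of the tyrosine kinase type, had 13.86 and 15.22 TPM, the glypican Gpc4 13.12 and 13.19, and the syndecan Sdc4 6.77 and 7.74. Of 8 genes of receptor turnover and Dkk partners 4 were detected. Kremen1, a receptor for Dkk1, had 33.24 and 36.00 TPM, while Dkk1 was listed at 0 in the gene table. Tmem88, an inhibitor that binds Dvl, had 9.12 and 7.80 TPM, the ligase Znrf3 2.76 and 2.81, and the inhibitor Apcdd1 1.12 and 1.00.

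The destruction complex and beta-catenin had 15 of 16 genes detected, with a median of 19.8 ± 0.223 TPM (SD, n = 2). Beta-catenin (Ctnnb1), which also serves in cell junctions, had 155.29 and 165.27 TPM, and the kinase Csnk1a1 67.23 and 76.63. Tnks2, which marks Axin for removal, had 31.25 and 27.91 TPM, and the kinase Gsk3a 24.31 and 26.58. Of 13 nuclear factors 11 were detected. Aes, a short member of the Groucho corepressor family, had 384.89 and 426.42 TPM, and the beta-catenin partners Bcl9l and Bcl9 22.43 and 22.49 TPM and 9.30 and 8.58 TPM. Pygo1, which joins Bcl9 on beta-catenin, had 6.18 and 6.12 TPM. The 2 nuclear factors not detected were Tcf7 and Lef1, with 0.45 and 0.28 TPM and 0.18 and 0.09 TPM. Both are themselves targets of the pathway in other tissues. The TCF factors Tcf7l2 and Tcf7l1 were detected, with 5.94 and 5.51 TPM and 3.02 and 3.36 TPM.

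Of 14 feedback and target genes 6 were detected, with a median of 0.923 ± 0.0389 TPM (SD, n = 2). The cell cycle gene Ccnd1 led with 10.94 and 10.83 TPM. The adhesion receptor Cd44 had 3.58 and 3.23 TPM, and Bambi, a pseudoreceptor, 1.90 and 1.89. Sp5 had 1 and 0 counts. Of 17 planar polarity genes, the branch linked to Wnt5a and Wnt11, 13 were detected. Daam1, a formin bound by Dvl, had 30.75 and 29.74 TPM and Scrib 8.32 and 8.81. Prickle3 had 7.50 and 6.42 TPM and Prickle1 5.40 and 7.12, so the order of these 2 differed between the mice.

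**Figure D5:**
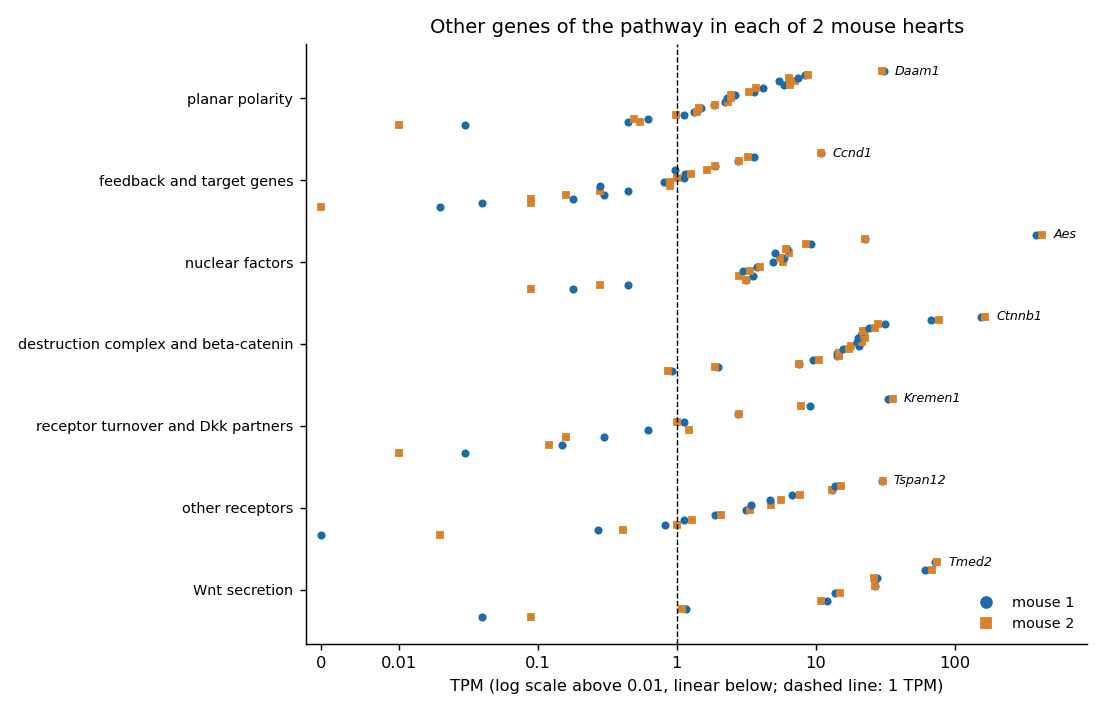
Level in TPM of the further pathway genes in 7 lists (rows; each gene a circle for mouse 1 and a square for mouse 2, the highest gene of each list named). The axis is logarithmic above 0.01 TPM and linear below it; 63 of 82 genes lie at or above the dashed line of 1 TPM in both mice, with Aes highest at 384.89 and 426.42 TPM.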

How the data were processed

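RNA-seq of 2 mouse hearts was deposited as gene and transcript tables. Per the file headers, the gene table gives expected counts, TPM, FPKM and posterior mean TPM with interval bounds (read here as a score). A further transcript table, which the authors quantified from 1 read file per its deposited description, gives estimated counts and TPM. The build was mm10 with GENCODE M21, in which all 55536 genes were found. The sources used here do not give the aligner, the quantifiers or versions. The 53 members all had whole expected counts (tolerance 0.005), beside 89.2% of genes with a protein-coding transcript.

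Expected counts were rounded for TMM scaling and dispersion in edgeR 4.0.16 (R 4.3.3, filterByExpr). The log2 scale of mouse 2 over mouse 1 was 0.23. Ratios used a prior count of 0.5, a mean count of at least 50 and exact Clopper-Pearson intervals at 95%. Means and SD are over 2 mice. Scripts ran in Python 3.11.15 with pandas 2.3.3 and scipy 1.17.1, and the ratio code was tested on simulated data. PCR reads carry no molecular identifiers, so intervals cover counting error only.

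Every member is named, with values in each mouse where it was detected or led its role. Of each further list up to 4 genes of highest TPM were named. Wls, Porcn, Tcf7, Lef1, Tcf7l2, Tcf7l1, Sp5 and norrin were added after their values were seen. The members and lists were chosen with earlier results of these data known. Of the listed genes, Tiki1 was not found, and Tle5 is carried under its older symbol Aes. Alternatives were the second table, other units, thresholds, scalings (including DESeq2 1.42.0 size factors) and leaving out each mouse. Protein sequences were not used here.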

Additional observations from a re-analysis of the deposited data

How the results depend on the processing

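The cause of the changes below was not tested, except where the unit itself sets the scale. With a limit of 2 TPM, 16 genes were detected, and every other setting gave 23 to 32. The median of the 53 genes was 0.891 TPM in the second table, 0.59 in FPKM and 1.91 when TPM was rescaled to nuclear protein-coding genes, and 2.87 TPM over detected genes alone. In the order ligands, Frizzled receptors, co-receptors, Frizzled-related inhibitors, Dkk and Wif inhibitors, R-spondins with Lgr receptors, and Dvl with Axin, the FPKM sums were 10.2, 27.5, 31.0, 5.91, 14.8, 12.8 and 38.0. Rescaled TPM sums were 33.1, 89.0, 100.5, 19.1, 47.9, 41.3 and 123.0. In the second table the sums were 15.4, 38.2, 9.03, 20.5, 19.4 and 54.8 TPM, leaving out the co-receptors, which moved by less than 1 SD. Posterior mean TPM gave 14.8 for ligands, 7.80 for Frizzled-related inhibitors, 16.8 for R-spondins with Lgr receptors and 48.8 for Dvl with Axin. On coding transcripts, a setting chosen after seeing the data, the sums were 9.46, 27.8, 33.4, 6.43, 15.1 and 42.3 TPM, leaving out the Dkk and Wif inhibitors, and 24 genes were detected, without Sfrp2.

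With a mean count of at least 10, 1 gene reached 2-fold, and with no filter on counts 8 did. Under DESeq2, total-count and spike-in scaling, the second table, a prior of 2 and a 1.5-fold limit, 0 of the 27 did. Spike-in scaling moved the log2 ratio by more than its counting error for 11 of the 27 genes, since its log2 scale was 0.06 against 0.23 for TMM. Among genes with 5 TPM or more in both mice, the leading transcript was the same in both tables for 9 of 10. The median coding share was 100% in the second table. Leaving out 1 mouse at a time, the count of detected genes was 25 each time and the median ran from 0.69 to 0.80 TPM.

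No paired analysis was possible because the series has 1 group. Depth limits the 9 genes at 0 in the gene table and the 17 genes with a mean count from 1 to under 50, whose ratios have wide intervals.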
